A study of Mus musculus with 2 samples.

Results

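The receptors for interleukin-23 (IL-23), interleukin-33 (IL-33) and interleukin-18 (IL-18) were described through the genes of their chains. These are Il23r and Il12rb1 for IL-23, Il1rl1 and Il1rap for IL-33, and Il18r1 and Il18rap for IL-18. They are 6 of the 32285 gene rows of each matrix, chosen by name, with earlier results of these data known. Of 73219 accessible regions found in both libraries, 71 lay within 50 kb of the start sites of these genes. Each receptor pairs a chain that binds the cytokine with a partner that joins the complex. Il23r pairs with Il12rb1, which also serves the IL-12 receptor, and signals through the Janus kinases Jak2 and Tyk2 to Stat3 and Stat4. Il1rl1 (ST2) and Il18r1 belong to the interleukin-1 receptor family, recruit Il1rap and Il18rap, and signal through Myd88 and the Irak kinases. In the gut, IL-23 is known for sustaining interleukin-17 and interleukin-22 producing lymphocytes, IL-33 for acting on type 2 lymphocytes and on tissue regulatory T cells, and IL-18 for acting on T cells and innate lymphocytes that make interferon-gamma.

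The nuclei came from lymphocytes of colon and small intestine, pooled, of mice 26 to 33 weeks old. Cells were sorted as CD4+CD44+CD62L- after exclusion of cells with CD8a, CD11c, CD45R or F4/80, which selects activated or memory CD4 lymphocytes. Mice with the genotype Zfp362flox/flox gave the control library, and mice with the genotype CD4creZfp362flox/flox gave the knockout library. Both therefore carried the floxed Zfp362 alleles, and Cre was driven by Cd4 regulatory sequence, so deletion follows the history of Cd4 expression in the cell. RNA and open chromatin were read from the same nuclei by droplet multiome sequencing. The design text names 7 mice without saying how they were divided between the genotypes. With 1 library per genotype there is no replicate and no test between genotypes: genotype, mice, library and depth cannot be told apart. Intervals below are 95% intervals for counting error alone, since nuclei of a library share its animals and its preparation.

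Nuclei were placed in 3 gates by lineage transcripts, without use of the receptors. Foxp3-positive nuclei held at least 1 unique molecule (UMI) of Foxp3, the factor that defines regulatory T cells. Other Cd3-positive nuclei held no Foxp3 UMI and at least 1 UMI of Cd3d, Cd3e or Cd3g, chains of the T-cell receptor complex. Cd3-negative nuclei held neither. The gates contained 420, 2111 and 1645 nuclei in the control library and 249, 1164 and 933 in the knockout library, out of 4176 and 2346 kept. Deposited totals were 10803590 and 9348999 UMIs, and 11 barcodes occurred in both libraries. Median UMIs per nucleus were 2575.5, 2101 and 1852 in the control library and 4297, 2747.5 and 1993 in the knockout library, in the same order. Zfp362, the targeted gene, was at 10.8, 9.35 and 7.47 UMIs per 1000000 UMIs of the gate (CPM; 18, 54 and 25 UMIs) in the control gates and 8.72, 6.61 and 3.24 CPM (19, 33 and 7 UMIs) in the knockout gates. Which exons are floxed is not given in the sources used here, and UMIs from the rest of the gene are counted too.

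The gates were checked against marker lists. All 10 T-cell markers were detected in both T gates, where they summed to between 3827 and 5118 CPM. In Cd3-negative nuclei they summed to 1346 CPM (control) and 1360 CPM (knockout), with Cd3d, Cd3e and Cd3g at 0 by the gate itself. At 1000 UMIs per nucleus, 26.6% and 26.8% of Cd3-negative nuclei still held a UMI of Trac, Cd5, Cd6 or Themis, against 75.5% and 75.8% of other Cd3-positive nuclei. Conversely, a UMI of Kit, Il1r1, Ncr1 or Arg1, genes typical of innate lymphoid cells, was found in 51.8% and 56.4% of Cd3-negative nuclei, 12.6% and 17.98% of other Cd3-positive nuclei and 13.9% and 17.7% of Foxp3-positive nuclei. The full list of 10 innate lymphoid genes did not single out that gate. It summed to 8975 and 8693 CPM in Foxp3-positive, 6718 and 7058 CPM in other Cd3-positive and 8339 and 8390 CPM in Cd3-negative nuclei. Of its other members, Tox and Gata3 were lowest in Cd3-negative nuclei in both libraries, and the rest highest. The 7 regulatory T-cell markers, Foxp3 included, summed to 6449 and 5082 CPM in Foxp3-positive, 3641 and 3664 CPM in other Cd3-positive and 1911 and 1839 CPM in Cd3-negative nuclei. Part of the Cd3-negative gate thus carried T-cell transcripts, and the whole gate went through a sort labelled as T cells. Nuclei with more than 2 times the median UMI count of their library, called deep below, made up 28.8% of control and 47.8% of knockout Foxp3-positive nuclei and held 59.4% and 85.6% of that gate's UMIs. In other Cd3-positive nuclei the deep share was 15.3% and 27.7%, and in Cd3-negative nuclei it was 3.34% and 4.50%. A UMI of Kit, Il1r1, Ncr1 or Arg1 was found in 28.9% and 33.6% of deep Foxp3-positive nuclei at equal depth, against 7.74% and 2.42% of the others in that gate. Some results were therefore also given without the deep nuclei, and values not marked in this way include them.

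Receptor levels were read in 2 ways. The CPM of a gate is the gene's UMIs divided by all UMIs of that gate, times 1000000. The share of nuclei with at least 1 UMI was counted after each nucleus had been thinned at random to 1000 UMIs, so that gates of different depth could be set side by side. Between 2 and 91 nuclei per gate and library were too shallow for this and were left out. As a reference for free RNA, 7 Cd3-negative nuclei of the control library and 6 of the knockout library carried B-cell or epithelial markers, with median depths of 6522 and 8536 UMIs. None of them held a UMI of any of the 6 receptors at 1000 UMIs, which with so few nuclei allows a share of up to 41.0% and 45.9% (exact binomial). Over their 97297 and 105299 unthinned UMIs they held 0 and 4 UMIs of Il23r, 0 and 0 of Il1rl1, and 1 and 3 of Il18r1.

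**Figure D1:**
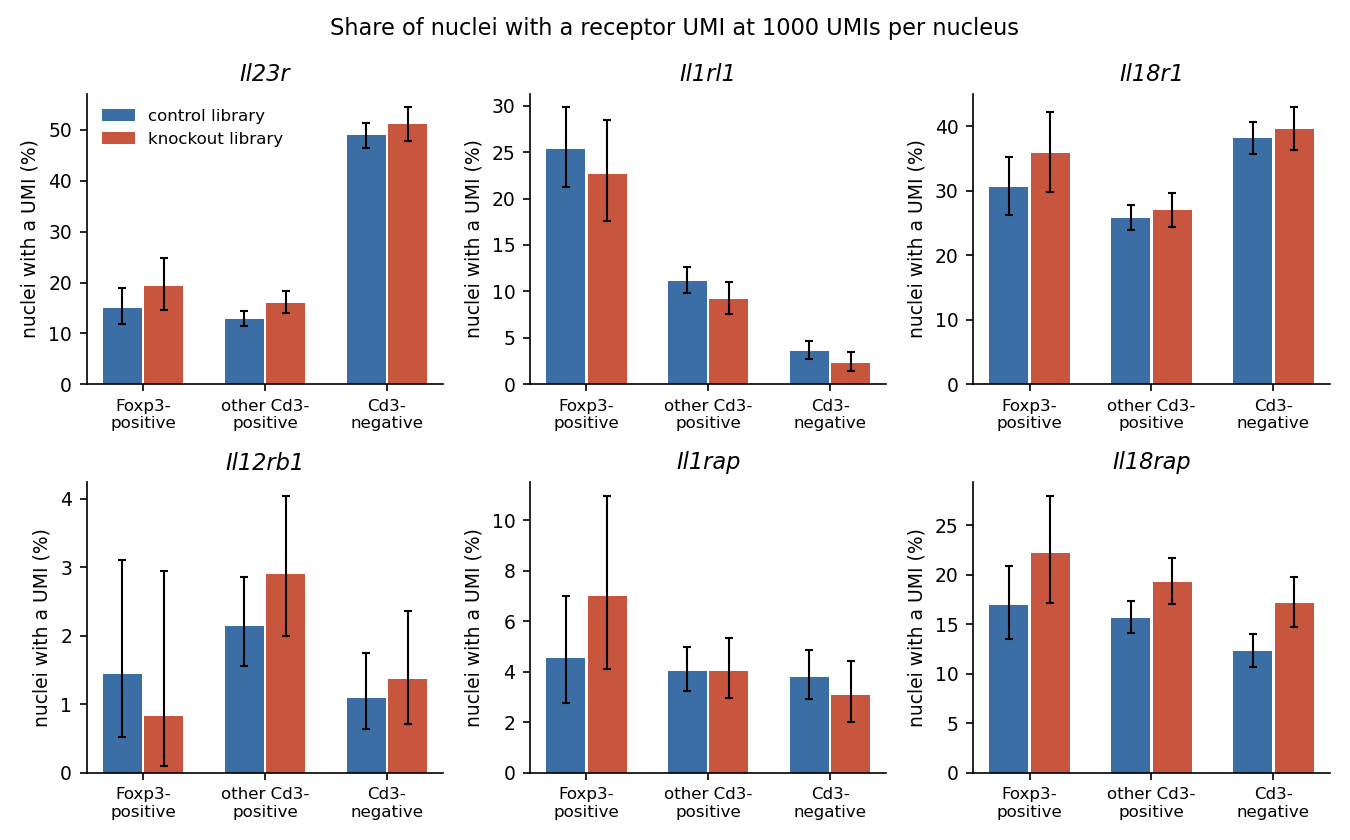
Share of nuclei with at least 1 UMI of each receptor chain (y axis, %) in the 3 gates (x axis), after thinning every nucleus to 1000 UMIs. Bars are the control (blue) and knockout (red) library, and error bars are exact 95% binomial intervals for counting error. Il23r stands highest in Cd3-negative nuclei (48.9% and 51.1%) and Il1rl1 in Foxp3-positive nuclei (25.4% and 22.6%), in both libraries.

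Il23r RNA was most abundant in Cd3-negative nuclei. Its level there was 1135 CPM (3800 UMIs) in the control library and 1121 CPM (2426 UMIs) in the knockout library. In other Cd3-positive nuclei it was 300 CPM (286 to 315, 1733 UMIs) and 355 CPM (339 to 372, 1773 UMIs). Foxp3-positive nuclei held 371 CPM (342 to 402, 618 UMIs) and 467 CPM (439 to 497, 1018 UMIs). The Cd3-negative gate was the highest in both libraries, and its intervals were apart from those of both T gates. Over other Cd3-positive nuclei its level was 3.78 times as high in the control library (log2 ratio 1.92, 1.84 to 2.00) and 3.16 times in the knockout library (1.66, 1.57 to 1.75). Il23r was the only member at least 2-fold higher there, and 11.3% and 11.4% of all genes with at least 20 UMIs were past the same fold.

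At equal depth, an Il23r UMI was present in 760 of 1554 control Cd3-negative nuclei (48.9%, 46.4 to 51.4) and 450 of 881 knockout ones (51.1%, 47.7 to 54.4). Among other Cd3-positive nuclei it was present in 264 of 2060 (12.8%, 11.4 to 14.3) and 183 of 1140 (16.1%, 14.0 to 18.3). Foxp3-positive nuclei gave 63 of 418 (15.1%, 11.8 to 18.9) and 47 of 243 (19.3%, 14.6 to 24.9), so the intervals of the T gates overlapped within each library. Without thinning the shares were 58.7% and 60.0% in Cd3-negative, 21.3% and 32.7% in other Cd3-positive and 30.2% and 49.4% in Foxp3-positive nuclei. Restricting the Cd3-negative gate to nuclei that also lacked Trac, Cd5, Cd6 and Themis UMIs raised its share at 1000 UMIs to 64.3% and 64.7%.

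The size of the gate difference moved with the deep nuclei. Without them the Cd3-negative level was 5.75 times (control) and 5.18 times (knockout) that of other Cd3-positive nuclei, and the share of other Cd3-positive nuclei with an Il23r UMI at 1000 UMIs went from 12.8% to 9.78% and from 16.1% to 11.6%. Among deep nuclei alone the log2 ratio was 0.83 and 0.78. In deep other Cd3-positive nuclei, T and innate genes were found in the same nucleus in 28.0% and 28.6% at equal depth, against 6.67% and 8.92% of the others. The part of such nuclei in the Il23r level of the T gates was not tested.

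Foxp3-positive nuclei held slightly more Il23r than other Cd3-positive nuclei over all nuclei, with log2 ratios of 0.31 (0.17 to 0.44) and 0.40 (0.28 to 0.51). Without deep nuclei the control ratio was 0.48 (0.24 to 0.71) and the knockout ratio was -0.19 (-0.60 to 0.18). The control ratio was -0.0095 with gates set at 1000 UMIs and -0.16 among deep nuclei alone. No order between the T gates can be read from either library.

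**Figure D2:**
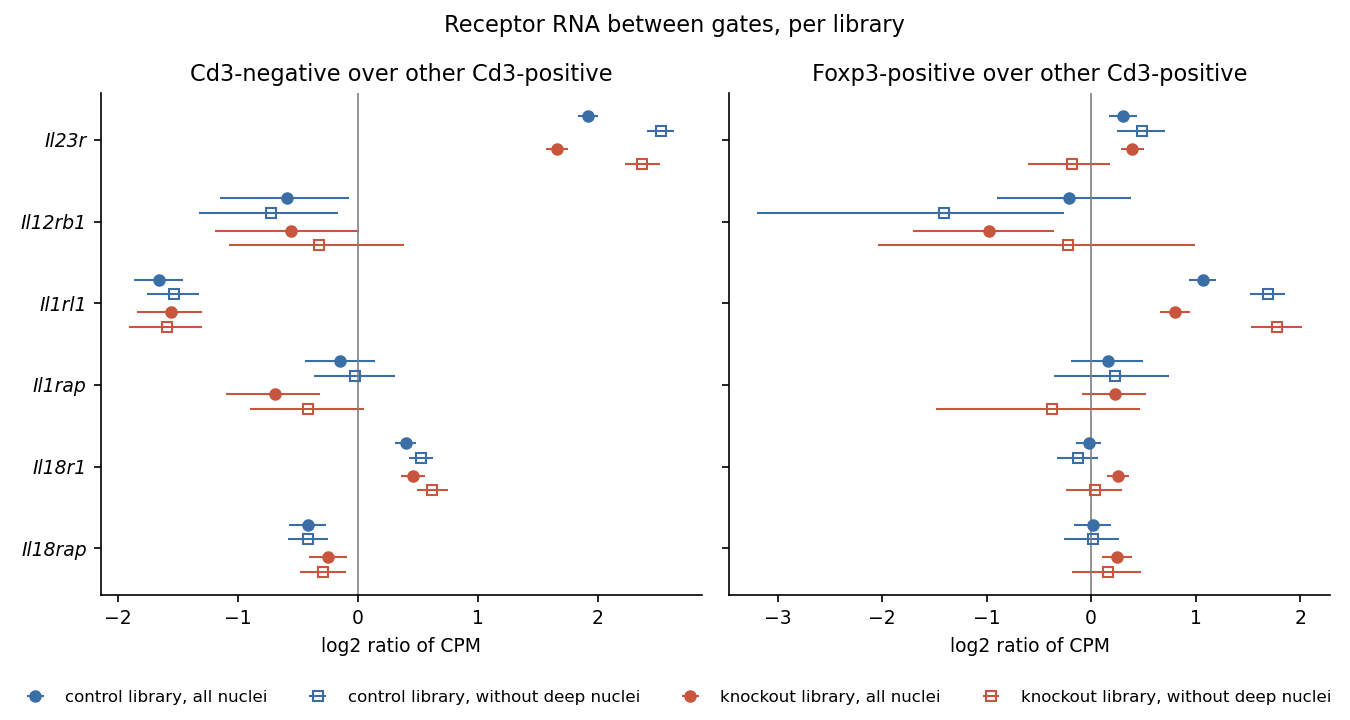
Log2 ratio of CPM (x axis) of each receptor chain (y axis) between Cd3-negative and other Cd3-positive nuclei (left) and between Foxp3-positive and other Cd3-positive nuclei (right). Circles are all nuclei and open squares are without deep nuclei, blue for the control and red for the knockout library, with 95% counting intervals. Il23r lies to the right (1.92 and 1.66) and Il1rl1 to the left (-1.66 and -1.56) of 0 in the left panel.

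Nuclei were then divided by transcripts of Gata3, the factor of type 2 lymphocytes, and Tbx21, that of type 1 lymphocytes. Nuclei with UMIs of both factors formed a class of their own. It was left out of the comparisons of classes below and kept for the ranking of similar genes. Within the Cd3-negative gate, Il23r was lowest in nuclei with Tbx21 and no Gata3 UMI, at 508 CPM (394 to 643, 69 nuclei) in the control and 578 CPM (440 to 746, 46 nuclei) in the knockout library. Cd3-negative nuclei with neither factor held 1201 CPM (1158 to 1246, 1216 nuclei) and 1244 CPM (1188 to 1302, 703 nuclei), and those with Gata3 alone 1083 CPM and 872 CPM. At 1000 UMIs, 16.9% and 26.2% of the Tbx21 nuclei held an Il23r UMI, against 52.2% and 54.5% of those with neither factor. In other Cd3-positive nuclei Il23r was at 157 CPM (124 to 197) with Tbx21 alone, 344 CPM (319 to 371) with Gata3 alone and 295 CPM (274 to 317) with neither in the control library. The knockout values were 333 CPM (285 to 387), 374 CPM (346 to 405) and 345 CPM (316 to 377), whose intervals overlap. Most Cd3-negative nuclei held neither factor UMI, and this class can include nuclei whose factor went unread.

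**Figure D3:**
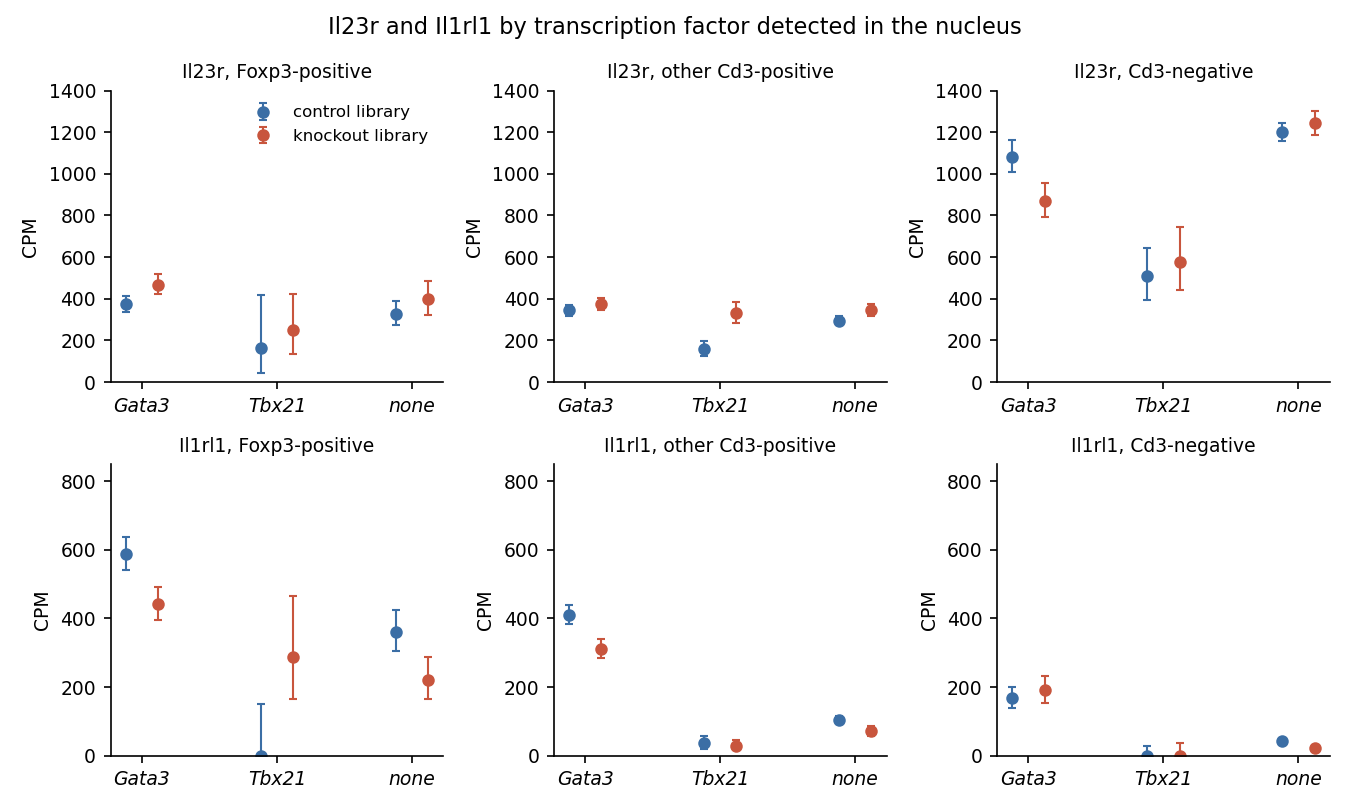
Level of Il23r (top) and Il1rl1 (bottom) in CPM (y axis, linear) in nuclei holding UMIs of Gata3 or Tbx21 alone, or of neither (x axis), for each gate. Blue is the control and red the knockout library, and bars are 95% Poisson intervals. Il1rl1 peaks with Gata3 in every gate (587 and 441 CPM in Foxp3-positive nuclei), and Il23r is low with Tbx21 in Cd3-negative nuclei (508 and 578 CPM).

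The Il23r locus was also more open in Cd3-negative nuclei. The region over its start site (mm10, chr6:67491418-67492515) held 8.82, 6.82 and 25.8 peak CPM (counts per 1000000 counts in shared regions) in Foxp3-positive, other Cd3-positive and Cd3-negative control nuclei. The knockout values were 10.7, 8.66 and 25.7 peak CPM. The log2 ratio of Cd3-negative over other Cd3-positive nuclei was 1.92 (1.46 to 2.40) and 1.57 (1.14 to 1.99). Il23r is transcribed from the minus strand (chromosome 6, 67422932 to 67491855). RefSeq (GRCm38.p6) gives 1 promoter window for it, chr6:67491806-67492105, shown here because it lies inside that accessible region. It is written 5′ to 3′ on the strand of the gene, and would carry in capitals any match to the GATA, T-box, Runx, STAT and AP-1 motifs spelled out with the Il1rl1 promoters.
Il23r promoter: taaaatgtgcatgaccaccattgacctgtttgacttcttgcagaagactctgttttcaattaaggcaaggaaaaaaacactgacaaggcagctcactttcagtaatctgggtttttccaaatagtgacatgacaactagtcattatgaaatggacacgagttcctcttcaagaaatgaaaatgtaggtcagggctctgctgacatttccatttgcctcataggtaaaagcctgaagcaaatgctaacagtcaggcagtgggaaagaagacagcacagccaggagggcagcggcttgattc
The window holds no match to them, which says only that those letters are not in these bases.

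Further regions at Il23r were also higher in Cd3-negative than in other Cd3-positive nuclei. Intronic regions at chr6:67482834-67483728, chr6:67475329-67476418 and chr6:67459122-67460021 held 18.6, 18.9 and 15.9 peak CPM in control Cd3-negative nuclei, against 9.51, 9.63 and 8.88 in other Cd3-positive nuclei. In the knockout library these were 19.8, 19.3 and 14.8 against 8.72, 11.8 and 9.40. In the knockout library 3 of the 12 shared regions within 50 kb were lower in Cd3-negative nuclei, with log2 ratios of -0.17, -0.24 and -0.89 whose intervals included 0. Summed over the 12 shared regions within 50 kb, the log2 ratio was 1.05 (0.89 to 1.21) and 0.77 (0.62 to 0.93). The same sums did not separate Foxp3-positive from other Cd3-positive nuclei in the control library (0.01), and gave -0.23 (-0.43 to -0.0058) in the knockout library. Near all 6 genes together, 8 of 71 regions in each library (11.3%) were at least 2-fold higher in Cd3-negative nuclei, where 17.4% and 14.9% of all shared regions were. At least 2-fold lower were 8 and 7 of 71, beside 12.9% and 12% of all. Neither share at the receptors exceeded its background.

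**Figure D4:**
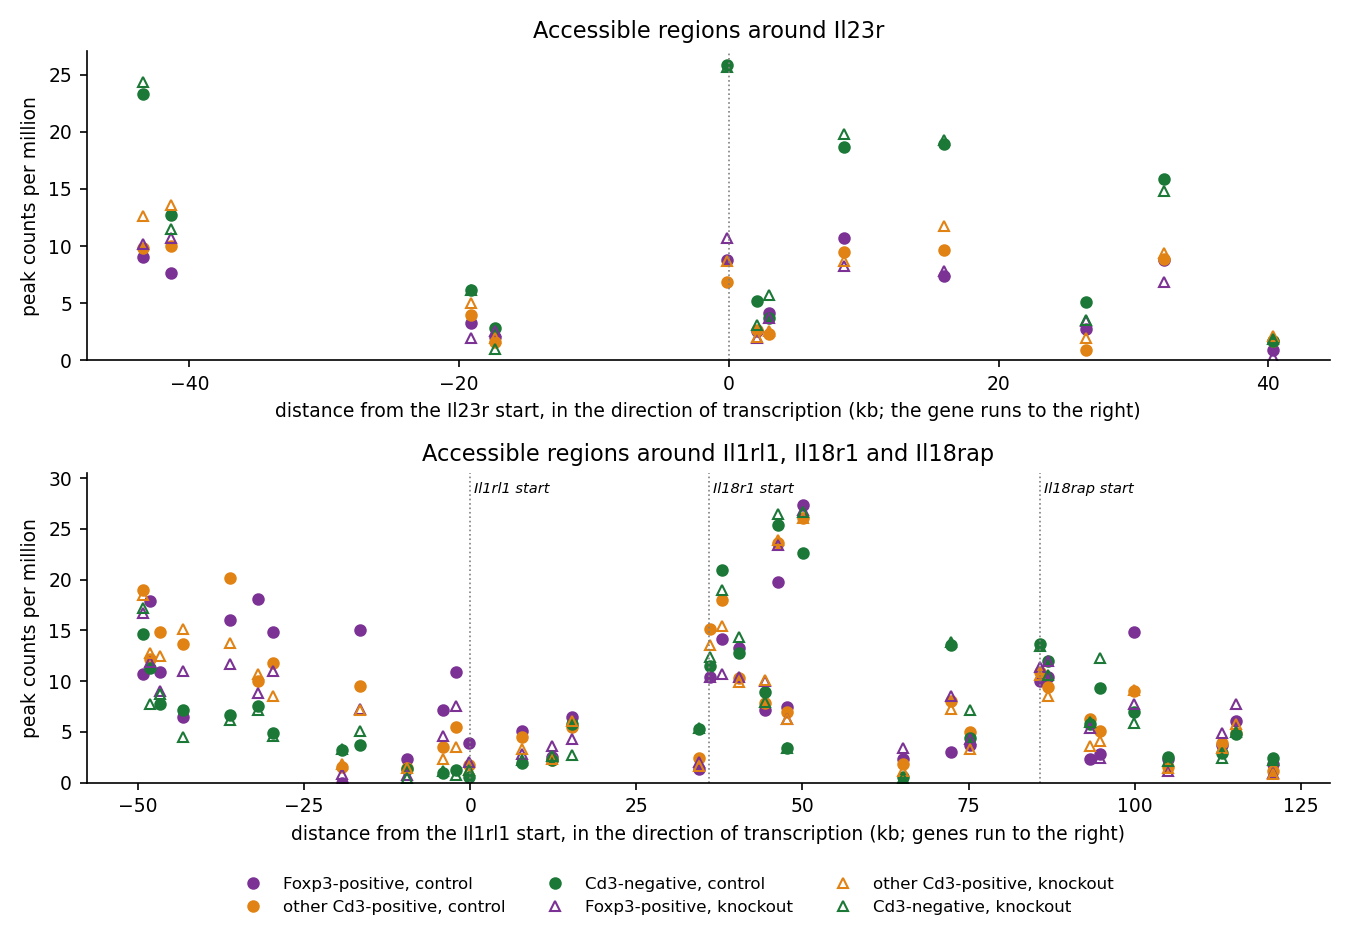
Accessibility in peak CPM (y axis) of shared regions around Il23r (top) and around Il1rl1, Il18r1 and Il18rap (bottom), against distance from the Il23r or Il1rl1 start in kb (x axis). Colours mark the gates, filled circles the control and open triangles the knockout library. The Il23r start is highest in Cd3-negative nuclei (25.8 and 25.7), whereas the pair of regions nearest upstream of the Il1rl1 start is highest in Foxp3-positive nuclei.

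Il12rb1, the partner shared by the IL-23 and IL-12 receptors, was read from few UMIs. Foxp3-positive nuclei held 16.2 CPM (27 UMIs) in the control and 11.01 CPM (24 UMIs) in the knockout library. Other Cd3-positive nuclei held 19.0 CPM and 22.0 CPM, with 110 UMIs in each library. Cd3-negative nuclei held 12.5 CPM (42 UMIs) and 14.8 CPM (32 UMIs). Its gate pattern thus did not follow that of Il23r: the log2 ratio of Cd3-negative over other Cd3-positive nuclei was -0.59 (-1.15 to -0.08) and -0.56 (-1.19 to 0.00). At 1000 UMIs its UMIs were in 0.823% to 2.89% of nuclei over the gates and libraries. The start of Il12rb1 (chr8:70807942-70808844) was open in all gates, at 19.7, 12.6 and 10.7 peak CPM in the control and 13.4, 11.8 and 11.4 in the knockout library. The region next to it on the upstream side (chr8:70806301-70807208) was more open in Cd3-negative nuclei, at 21.8 against 10.8 and 23.4 against 14.4 in other Cd3-positive nuclei. That window also holds the starts of Mpv17l2, Ifi30, Pik3r2, Mast3 and Arrdc2.

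Il1rl1, the ligand-binding chain for IL-33, showed the opposite distribution from Il23r. Foxp3-positive nuclei held 458 CPM (426 to 491, 762 UMIs) in the control and 308 CPM (285 to 332, 671 UMIs) in the knockout library. Other Cd3-positive nuclei held 219 CPM (207 to 231, 1262 UMIs) and 177 CPM (165 to 189, 882 UMIs). Cd3-negative nuclei held 69.0 CPM (60.4 to 78.5, 231 UMIs) and 59.6 CPM (49.8 to 70.9, 129 UMIs), and a single nucleus held 14.7% of those 129 UMIs. The order of the gates was the same in both libraries and their intervals did not overlap. Il1rl1 was 6.62 times (control) and 5.15 times (knockout) as high in Foxp3-positive as in Cd3-negative nuclei. Against other Cd3-positive nuclei, Cd3-negative nuclei were 3.16-fold and 2.95-fold lower, with log2 ratios of -1.66 (-1.87 to -1.46) and -1.56 (-1.84 to -1.30). It was the only member at least 2-fold lower there, as 7.06% and 6.21% of all genes were. With gates set at 1000 UMIs the log2 ratios were -0.89 and -0.94, and 7.0004% and 5.21% of Cd3-negative nuclei held an Il1rl1 UMI.

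Foxp3-positive nuclei exceeded other Cd3-positive nuclei 2.09-fold in the control library (log2 1.07, 0.93 to 1.20) and 1.74-fold in the knockout library (0.80, 0.65 to 0.95). At least 2-fold higher levels were found for 2.6% and 1.86% of all genes. Without deep nuclei the excess was 3.23-fold (1.69, 1.52 to 1.85) and 3.43-fold (1.78, 1.53 to 2.02), where 4.26% and 5.61% of all genes were past 2-fold. Among deep nuclei alone it was 0.40 and 0.59 on the log2 scale.

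Counted by nuclei at equal depth, 106 of 418 control Foxp3-positive nuclei (25.4%, 21.3 to 29.8) and 55 of 243 knockout ones (22.6%, 17.5 to 28.4) held an Il1rl1 UMI. The shares were 11.2% (9.84 to 12.6) and 9.21% (7.59 to 11.04) in other Cd3-positive nuclei, from 230 of 2060 and 105 of 1140. In Cd3-negative nuclei they were 3.60% (56 of 1554) and 2.27% (20 of 881). Unthinned, they were 41.0% and 47.4%, 16.4% and 17.96%, and 4.98% and 3.75%, in the order Foxp3-positive, other Cd3-positive and Cd3-negative. The Cd3-negative share fell further when nuclei with Trac, Cd5, Cd6 or Themis UMIs were taken out, to 17 of 1042 (1.63%) and 4 of 575 (0.696%), and the level was then 9.45-fold and 10.3-fold below other Cd3-positive nuclei.

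Within every gate Il1rl1 was highest in nuclei with Gata3 alone, among the classes with a single factor or neither. Foxp3-positive nuclei of this class held 587 CPM (540 to 637, 219 nuclei) in the control and 441 CPM (396 to 491, 119 nuclei) in the knockout library, and 37.0% and 31.6% of them held a UMI at 1000 UMIs. Other Cd3-positive nuclei with Gata3 alone held 410 CPM (383 to 439, 654 nuclei) and 312 CPM (286 to 339, 386 nuclei). The same class of Cd3-negative nuclei held 168 CPM (140 to 200, 335 nuclei) and 190.0 CPM (154 to 232, 167 nuclei). Nuclei with neither factor held 360.4 and 221 CPM if Foxp3-positive, but 103 and 71.3 CPM if otherwise Cd3-positive. Hence Gata3 and Foxp3 each went with more Il1rl1. Other Cd3-positive nuclei with Tbx21 alone held 35.6 CPM (17 UMIs) and 27.6 CPM (14 UMIs). Cd3-negative nuclei with Tbx21 alone held 0 Il1rl1 UMIs in both libraries, which allows up to 27.5 and 36.1 CPM. Among these classes, the order with Gata3 first held in 6 of 6 combinations of gate and library, also without deep nuclei.

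Il1rl1 lies on the plus strand of chromosome 1 (40429570 to 40465415), directly before Il18r1 (40465552 to 40500854) and Il18rap (40515362 to 40551705). The pair of regions nearest upstream of its distal start stood in the order of its RNA. Regions were named by their ratio of Cd3-negative over other Cd3-positive nuclei, so their low level in Cd3-negative nuclei came with the choice. The region chr1:40426963-40427902 held 10.9, 5.44 and 1.24 peak CPM in Foxp3-positive, other Cd3-positive and Cd3-negative control nuclei and 7.58, 3.57 and 0.775 in the knockout library. Its neighbour chr1:40425063-40425958 held 7.19, 3.50 and 0.956, and 4.57, 2.38 and 1.11. In both regions and both libraries the gates stood in the order of the RNA. These are thin signals, of 270 and 181 counts over both libraries: for the first, the log2 ratio of Cd3-negative over other Cd3-positive nuclei was -2.08 (-3.18 to -0.78) and -2.11 (-3.99 to -0.54). For the neighbour it was -1.82 (-3.65 to -0.54) and -1.05 (-2.93 to 0.26). In the knockout library its ratio of Foxp3-positive over other Cd3-positive nuclei was 0.95 (-0.04 to 1.95), so neither step was apart from 0 there. The next region upstream (chr1:40419572-40420507, 81 counts) did not keep the order in the knockout library, at 0.715, 1.42 and 0.443 peak CPM. The region over the distal start itself (chr1:40428910-40429783) had 99 counts, with 3.95, 1.75 and 0.574 peak CPM in the control and 2.00, 1.30 and 1.22 in the knockout library. A second annotated start downstream overlapped no region called in either library.

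RefSeq windows of both Il1rl1 starts, and that of Il18rap, are shown because the first 2 are alternative promoters of which only the distal one overlapped a called region, and the third is the start of a neighbour that is open in all gates. They cover chr1:40429320-40429619, chr1:40439379-40439678 and chr1:40515112-40515411 on the plus strand (GRCm38.p6). Capitals mark matches, read on either strand, to a GATA motif (the letters AGATAA, with TGATAA counted equally), to a T-box motif (searched as AGGTGT) and to a Runx motif (searched as the letters TGTGGT).
Il1rl1 distal promoter: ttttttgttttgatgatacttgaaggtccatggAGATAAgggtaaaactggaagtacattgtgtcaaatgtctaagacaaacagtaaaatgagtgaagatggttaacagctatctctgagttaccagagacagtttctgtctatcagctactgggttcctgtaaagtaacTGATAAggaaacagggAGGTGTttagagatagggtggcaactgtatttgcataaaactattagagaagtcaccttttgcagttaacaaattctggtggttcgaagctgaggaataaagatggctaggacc
Il1rl1 downstream promoter: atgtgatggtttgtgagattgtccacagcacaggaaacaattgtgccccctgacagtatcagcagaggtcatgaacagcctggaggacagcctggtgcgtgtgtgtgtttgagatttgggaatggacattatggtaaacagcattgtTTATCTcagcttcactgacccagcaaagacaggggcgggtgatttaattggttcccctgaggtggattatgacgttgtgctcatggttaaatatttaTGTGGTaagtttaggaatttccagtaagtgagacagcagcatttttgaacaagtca
Il18rap promoter: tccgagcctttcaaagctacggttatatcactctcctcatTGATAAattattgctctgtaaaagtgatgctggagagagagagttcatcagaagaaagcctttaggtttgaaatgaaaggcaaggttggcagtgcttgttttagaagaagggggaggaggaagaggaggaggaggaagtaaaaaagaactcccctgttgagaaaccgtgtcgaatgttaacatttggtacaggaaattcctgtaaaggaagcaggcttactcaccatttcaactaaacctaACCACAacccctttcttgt
The distal Il1rl1 window holds 2 GATA matches and 1 T-box match. The downstream window holds 1 match each to GATA and Runx, and the Il18rap window 1 each to GATA and Runx. Of all promoter windows, 18.6% hold a GATA match, 13.7% a T-box match and 16.8% a Runx match, so matches of this kind are common and describe only the letters. None of these windows holds a STAT match (TTCNNNGAA, in 8.30% of windows) or an AP-1 match (TGANTCA, in 7.81%). For 5 of the 6 genes the table held 8 windows in all.

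Over the 24 shared regions within 50 kb of its starts, accessibility at Il1rl1 was lower in Cd3-negative than in other Cd3-positive nuclei, with log2 ratios of -0.37 (-0.48 to -0.26) and -0.25 (-0.36 to -0.14). Within 10 kb, over 7 regions, the ratios were -0.79 and -0.87. Not every region in this window went the same way. An intergenic region (chr1:40392989-40393914) was lower in Cd3-negative nuclei, at 6.69 against 20.2 and 6.201 against 13.8 peak CPM. A region over the last part of Il1rl1 (chr1:40463632-40464483), close to the start of Il18r1, was higher there, at 5.26 against 2.44 and 5.43 against 1.64. The windows of Il1rl1, Il18r1 and Il18rap overlap, so their sums share regions.

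Il1rap, the accessory chain of the IL-33 receptor and of other receptors of the interleukin-1 family, differed less between gates. Foxp3-positive nuclei held 55.8 CPM (93 UMIs) and 61.5 CPM (134 UMIs), other Cd3-positive nuclei 50.04 CPM (289 UMIs) and 52.7 CPM (263 UMIs), and Cd3-negative nuclei 45.1 CPM (151 UMIs) and 32.4 CPM (70 UMIs). The Cd3-negative to other Cd3-positive log2 ratio was -0.15 (-0.44 to 0.14) in the control library and -0.70 (-1.10 to -0.32) in the knockout library. At 1000 UMIs the share of nuclei with an Il1rap UMI ran from 3.06% to 6.996%. Its start (chr16:26581222-26582104) was open in all gates, at 40.8, 42.8 and 36.2 peak CPM in the control and 37.2, 36.3 and 35.7 in the knockout library.

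Il18r1, the ligand-binding chain for IL-18, was found in every gate. Foxp3-positive nuclei held 432 CPM (720 UMIs) in the control and 518 CPM (1129 UMIs) in the knockout library. Other Cd3-positive nuclei held 439 CPM (2535 UMIs) and 432 CPM (2159 UMIs). Cd3-negative nuclei were highest, with 579 CPM (1937 UMIs) and 594 CPM (1285 UMIs). The log2 ratio of Cd3-negative over other Cd3-positive nuclei was 0.40 (0.31 to 0.48) and 0.46 (0.36 to 0.56), and 0.53 and 0.62 without deep nuclei. Among deep nuclei alone it was -0.08 and -0.18. At equal depth 38.2% (35.7 to 40.6) and 39.6% (36.4 to 42.9) of Cd3-negative nuclei held a UMI, against 25.8% (23.9 to 27.7) and 27.0% (24.5 to 29.7) of other Cd3-positive and 30.6% (26.2 to 35.3) and 35.8% (29.8 to 42.2) of Foxp3-positive nuclei. Unthinned shares were 53.9% and 57.4%, 43.7% and 51.8%, and 56.0% and 68.7%, so the order of the gates depended on depth.

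Il18r1 was spread over the factor classes. In Cd3-negative nuclei it was 671 and 579.8 CPM with Gata3 alone, 522 and 421 CPM with Tbx21 alone, and 555 and 615 CPM with neither. In other Cd3-positive nuclei those classes held 459.5 and 413, 389.6 and 489, and 426 and 432 CPM. None of these classes was the highest in both libraries of either gate. The start of Il18r1 (chr1:40465264-40466127) was open in all gates, at 10.4, 15.1 and 11.5 peak CPM in the control and 10.4, 13.6 and 12.4 in the knockout library.

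Il18rap, the partner chain of the IL-18 receptor, had the opposite tilt from Il18r1. Foxp3-positive nuclei held 204 CPM (339 UMIs) and 279 CPM (609 UMIs), other Cd3-positive nuclei 201 CPM (1163 UMIs) and 235 CPM (1174 UMIs), and Cd3-negative nuclei 151 CPM (504 UMIs) and 198 CPM (428 UMIs). Cd3-negative nuclei were lowest in both libraries, with log2 ratios over other Cd3-positive nuclei of -0.42 (-0.57 to -0.27) and -0.25 (-0.41 to -0.09). At 1000 UMIs, 17.0% and 22.2% of Foxp3-positive, 15.7% and 19.3% of other Cd3-positive and 12.3% and 17.1% of Cd3-negative nuclei held a UMI, and unthinned 39.0% and 60.2%, 30.2% and 43.0%, and 22.0% and 28.4%. Regions of its window went both ways. Its start (chr1:40514875-40515719) did not show the tilt of its RNA, and held 9.98, 10.9 and 13.7 peak CPM in the control and 11.4, 10.6 and 13.5 in the knockout library. A region within the gene (chr1:40523943-40524890) held 5.07 in other Cd3-positive and 9.37 in Cd3-negative control nuclei, and 4.08 and 12.3 in the knockout library, with log2 ratios of 0.89 (0.24 to 1.504) and 1.59 (0.94 to 2.20). An intergenic region between Il18r1 and Il18rap (chr1:40501495-40502442) was also higher in Cd3-negative nuclei, at 13.6 against 8.005 and 13.8 against 7.25.

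Both chains of a receptor were next counted in the same nucleus at 1000 UMIs, beside the product of the single shares, which is the share if the chains were unrelated within a gate. For the IL-18 receptor, 131 of the other Cd3-positive control nuclei held both Il18r1 and Il18rap (6.36%, 5.34 to 7.50), where the product was 4.04%. In the knockout library it was 84 nuclei (7.37%, 5.92 to 9.04) with a product of 5.21%. In Foxp3-positive nuclei the share was 5.74% beside 5.20% and 7.82% beside 7.96%, and in Cd3-negative nuclei 5.02% beside 4.69% and 7.83% beside 6.79%. The share exceeded the product beyond its interval only in other Cd3-positive nuclei, of the gates compared. Deep nuclei were included in these counts, which were not repeated without them. Il23r and Il12rb1 were read together in 1 to 10 nuclei per gate and library, and Il1rl1 and Il1rap in 2 to 8, too few at this depth to set against the product.

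Some pairs of chains of different receptors were also counted, a choice made after the values were seen. Il23r and Il1rl1 were rarely in the same Cd3-negative nucleus: 3 control and 4 knockout nuclei held both, where the product gave 27.4 and 10.2. At 2000 UMIs it was 3 beside 15.1 in the control, but 8 beside 11.9 in the knockout library (1.74%, 0.754 to 3.398, with a product of 2.59%). In control Cd3-negative nuclei, 0.395% of those with Il23r and 6.68% of those without it held Il1rl1, and in the knockout library 0.889% and 3.71% did. In Foxp3-positive nuclei the shares were 11.1% with and 27.9% without Il23r in the control and 17.0% and 23.98% in the knockout library, where at 2000 UMIs they were 27.3% and 30.2%. Other Cd3-positive nuclei with both numbered 34 beside 29.5 in the control and 13 beside 16.9 in the knockout library. Il23r and Il18r1 went together in 352 control (22.7%, 20.6 to 24.8) and 221 knockout (25.1%, 22.3 to 28.1) Cd3-negative nuclei, beside products of 18.7% and 20.2%. They also exceeded the product in other Cd3-positive nuclei, at 4.61% (3.75 to 5.61) beside 3.30% and 6.23% (4.90 to 7.79) beside 4.34%. Pairs were not recounted without deep nuclei, of which 28.0% and 28.6% in this gate held T and innate genes together. The part of such nuclei in the excess was not tested. Il1rl1 went with Il18rap in other Cd3-positive nuclei: 27.4% of control other Cd3-positive nuclei with Il1rl1 held Il18rap, against 14.2% without it. In the knockout library these were 28.6% and 18.4%. In Foxp3-positive nuclei they were 25.5% and 14.1% in the control and 32.7% and 19.1% in the knockout library, but the share with both was 6.46% (4.30 to 9.26) beside a product of 4.31% and 7.41% (4.45 to 11.5) beside 5.03%, both intervals holding the product. At 2000 UMIs, 23 knockout Foxp3-positive nuclei held both, where the product gave 22.1. Il1rl1 and Il18r1, both ligand-binding chains, were together in 55 control other Cd3-positive nuclei, where the product gave 59.3. In the knockout library 40 held both beside 28.4 (3.51%, 2.52 to 4.75, with a product of 2.49%), so the libraries differed.

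Genes whose level ran most like each receptor were ranked by Pearson's r of log2(CPM + 1) over 24 points, the 3 gates by 4 Gata3 and Tbx21 classes by 2 libraries, among 8055 genes. The points share libraries and gates and some classes hold as few as 7 nuclei, so r is a description. Among the 5 nearest to Il23r were Gem (0.91), a small GTP-binding protein, and Kit (0.90), the stem cell factor receptor. Gem was at 2009 and 2301 CPM in Cd3-negative against 455 and 605 CPM in other Cd3-positive nuclei. Kit was at 567 and 570.4 against 129 and 154 CPM. Among the 5 nearest to Il1rl1 were Gas2l3 (0.95) and Areg (0.91), the epidermal growth factor family ligand amphiregulin. Areg was at 590.3 and 323 CPM in Foxp3-positive, 269 and 230.3 CPM in other Cd3-positive and 87.2 and 80.9 CPM in Cd3-negative nuclei. Nearest to Il18r1 was Cd69 (0.85), an early activation antigen, at 714 and 771 CPM in Cd3-negative against 487 and 508 CPM in other Cd3-positive nuclei.

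Of 35 further genes of these pathways, the ligand genes Il23a, Il12a and Il12b had at most 3 UMIs in any gate of either library. Ebi3, a chain of IL-27, was at 26.4, 14.5 and 7.47 CPM in Foxp3-positive, other Cd3-positive and Cd3-negative control nuclei, and Il27, its other chain, had at most 38 UMIs in a gate. Il33 reached 6.87 and 4.62 CPM in Cd3-negative nuclei. Between Cd3-negative and other Cd3-positive nuclei, 6 of 31 measured pathway genes were at least 2-fold higher and 6 lower in the control library, and 4 and 6 of 29 in the knockout library. Of all genes, 11.3% and 11.4% were past that fold upwards and 7.06% and 6.21% downwards. Among the receptor chains, Il1r1, the interleukin-1 receptor, was higher in Cd3-negative nuclei (log2 2.09 and 1.69, from 146 to 623 and from 197 to 636 CPM), and Il12rb2, which completes the IL-12 receptor, was lower (-1.66 and -1.59). Of 12 signal transducers, the kinase Irak2 was higher (1.35 and 1.15), Jak2 was lower (-1.25 and -1.17), and the other 10, with Stat3, Stat4, Tyk2 and Myd88, stayed within 2-fold in both libraries. Of the target cytokines, Il17f (1.98 and 1.34) and Il22 (2.18 and 1.46) were higher, and Ifng (-1.36 and -1.53), Il5 (-2.28 and -3.38) and Areg (-1.62 and -1.51) lower. Il5 had only 9 and 4 UMIs in Cd3-negative nuclei. Il17a, the interleukin-17A gene, was at -0.96 and -1.92, on the other side from Il17f.

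Between Foxp3-positive and other Cd3-positive nuclei, 2 of 30 pathway genes were at least 2-fold higher in the control library, Il1r2 and Areg (1.14). Of all genes, 2.6% were. Lower were 6, Il27, Il12rb2, Il17a, Ifng, Il5 and Il13, where 3.27% of all genes were. In the knockout library 1 was higher (Il13), beside 1.86% of all genes, and 1 lower (Il5), beside 2.17%. None of the 6 receptor chains was 2-fold lower in either library over all nuclei. Without deep nuclei Il12rb1 was, from few UMIs and in the control library only, where 6.4% of all genes were. No pathway gene passed the fold in the same direction in both libraries except Il5, which had 4 and 3 UMIs in Foxp3-positive nuclei. Il27 and Il13 had 5 and 3 UMIs in control Foxp3-positive nuclei, so these calls lie near the floor.

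Between the libraries, no receptor chain reached a 1.5-fold difference in any gate over all nuclei, 0 of 18 values. With gates set at 1000 UMIs 4 were higher and 1 lower by that fold, and among deep nuclei alone 2 were higher and 2 lower. The share of all genes past the fold was not computed under those alternatives, so these counts have no background beside them. Over all genes and all nuclei, 8.28% (Foxp3-positive), 6.18% (other Cd3-positive) and 8.09% (Cd3-negative) were at least 1.5-fold higher in the knockout library, and 10.5%, 5.81% and 6.31% lower. Il18rap was higher in the knockout library in every gate, with log2 ratios of 0.46 (0.26 to 0.65) in Foxp3-positive, 0.22 (0.11 to 0.34) in other Cd3-positive and 0.39 (0.20 to 0.58) in Cd3-negative nuclei. Without deep nuclei these were 0.45 (0.05 to 0.83), 0.30 (0.14 to 0.46) and 0.43 (0.23 to 0.63), so this small difference was as large without the deep nuclei. Il18r1 differed by 0.26 (0.12 to 0.40), -0.02 and 0.04.

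Il1rl1 was lower in the knockout library in Foxp3-positive nuclei, at -0.57 (-0.72 to -0.42), but the difference was -0.09 (-0.33 to 0.15) without deep nuclei. In other Cd3-positive nuclei it was -0.31 (-0.43 to -0.18) and -0.18 (-0.36 to 0.00). Il23r was higher in knockout Foxp3-positive nuclei at 0.33 (0.19 to 0.48) over all nuclei, and lower at -0.49 (-0.93 to -0.08) without deep nuclei. In other Cd3-positive nuclei it was 0.24 (0.15 to 0.34) over all nuclei, 0.18 (0.01 to 0.35) without deep nuclei and -0.13 among deep nuclei alone, and in Cd3-negative nuclei it was -0.02. Deep nuclei held 85.6% of the UMIs of the knockout Foxp3-positive gate and 59.4% of the control one, and no direction for Il23r or Il1rl1 in that gate can be drawn from these libraries. Il1rap was at -0.47 (-0.91 to -0.06) in Cd3-negative nuclei and -0.30 (-0.76 to 0.13) without deep nuclei, but 0.015 with gates set at 1000 UMIs, and Il12rb1 had intervals that included 0 in all 3 gates. Without deep nuclei 1 of the 18 values was past 1.5-fold, Il12rb1 in Foxp3-positive nuclei, from 5 UMIs in each library (1.11, -1.01 to 3.23), where 9.92% of all genes were that much higher.

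**Figure D5:**
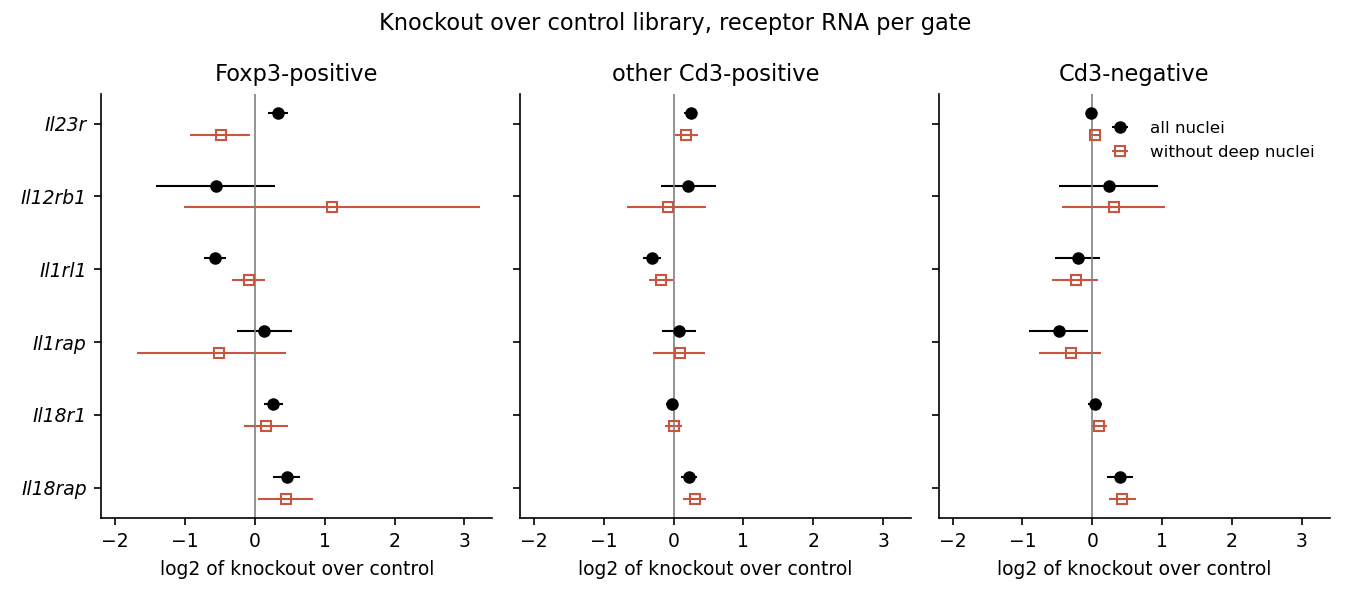
Log2 ratio of the knockout over the control library (x axis) of each receptor chain (y axis) in the 3 gates, for all nuclei (black circles) and without deep nuclei (red squares), with 95% counting intervals. Il18rap lies to the right of 0 in all gates (0.46, 0.22 and 0.39), and Il23r in Foxp3-positive nuclei changes side, from 0.33 to -0.49.

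Accessibility summed within 50 kb was also compared between the libraries. Il1rl1 was at -0.22 (-0.37 to -0.05) in Foxp3-positive, -0.12 (-0.21 to -0.03) in other Cd3-positive and 0.00 in Cd3-negative nuclei, and Il23r at 0.25 (0.09 to 0.41) in other Cd3-positive nuclei. These sums include deep nuclei, and those of the other members are not listed. The Il1rl1 window also holds the start of Il18r1. Of the pathway genes, 8 of 28 were at least 1.5-fold higher and 5 lower in knockout Foxp3-positive nuclei, 4 of 30 higher and 0 lower in other Cd3-positive nuclei, and 0 of 28 in Cd3-negative nuclei. Beside them stand 8.28%, 6.18% and 8.09% of all genes higher and 10.5%, 5.81% and 6.31% lower. These counts were not recomputed without deep nuclei. The 4 in other Cd3-positive nuclei were the cytokines Il17f (0.64), Il22 (0.70), Csf2 (0.88) and Il5 (0.66).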

How the data were processed

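RNA and open chromatin were read from the same nuclei in 2 libraries, 1 per genotype. The submitters' processing notes name Cell Ranger ARC 2.0.1 and mm10. The deposited matrices hold counts per barcode for genes (UMIs) and for peaks called separately in each library, per the file headers; 91.7% and 90.7% of peak counts were even, as when both ends of a fragment are counted. Barcodes under 500 UMIs, under 300 genes or over 10% mitochondrial UMIs were removed (47 and 45). No doublet caller was run; nuclei above 2 times the library's median UMIs (4014 and 4603) were left out as an alternative. Ratios are of summed counts with a pseudocount of 0.5, with exact conditional intervals; other intervals are Poisson and exact binomial, all at 95%. The ratios were tested on simulated Poisson counts, where 95.6% of intervals over 13909 genes held the truth when pooled library sums were compared. Clustering of UMIs by nucleus and ratios between gates were not simulated. The simulation therefore checks the calculation and not the spread of real counts. Peaks were matched between libraries at 1 base of overlap (87.7% and 85.8% matched), and windows reach 50 kb from the start sites of the gene row. Python 3.11.15, numpy 2.4.6, scipy 1.17.1, pandas 2.3.3 and matplotlib 3.10.9 were used. The members, gates and lists were chosen with earlier results of these data known. Text names the members, the pathway list and some of the 5 genes most like a member among those with at least 200 UMIs. Per member it names the start region and up to 3 regions toward each end of the gate ratio with at least 100 counts. The intronic regions named at Il23r are not all among those with the largest ratios. The Il1rl1 start, at 99 counts, enters as a start region. A region of 81 counts upstream of it is given because its gates did not keep the order. Where depth could change a value, the alternatives were thinning to 500 or 2000 UMIs, gates set at 1000 UMIs, no filter, at least 2 Cd3 UMIs, and equal weight per nucleus. A factor planned for the classes, and a region near Il23r, are not reported here, so the classes and the ranking of similar genes use Gata3 and Tbx21 alone, a change made after the data were seen; the genes so ranked that are named were chosen after their values were seen.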

Additional observations from a re-analysis of the deposited data

How the results depend on the processing

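No paired analysis was possible because each genotype has 1 library, and for the same reason no replicate could be left out. Under the alternatives, 116 of 168 RNA ratios between gates stayed within their counting interval, 47 moved and 5 changed sign. For RNA ratios between libraries these were 107, 15 and 4 of 126, for shares of nuclei 130, 122 and 0 of 252, for peak ratios between gates 108, 35 and 1 of 144, and for peak ratios between libraries 97, 11 and 0 of 108. Deep nuclei alone, looked at after the data were seen, left 0 members at least 2-fold higher in Cd3-negative nuclei, where 1 stood over all nuclei. With gates and counts at 1000 UMIs, 0 members were at least 2-fold lower there, where 1 stood: Il1rl1 was then at -0.89 and -0.94. Foxp3-positive nuclei had 0 members at least 2-fold higher in both libraries, but 1 (Il1rl1) without deep nuclei, with gates at 1000 UMIs, or with equal weight per nucleus. Of 18 library ratios, 0 were past 1.5-fold, but higher in the knockout library were 1 without deep nuclei, 4 with gates at 1000 UMIs and 2 among deep nuclei, and lower 1 and 2 under the last 2. Shares of all genes past a fold were computed only over all nuclei and without deep nuclei, so counts of members under the other alternatives have no background. Unthinned, Foxp3-positive nuclei had the highest share, with intervals apart, for 3 members, against 1 at equal depth. Peak windows higher in Cd3-negative nuclei numbered 1, and 2 within 10 kb, and those lower 1, and 0 within 100 kb. Signs changed for Il18r1 in Cd3-negative over other Cd3-positive nuclei among deep nuclei (-0.079 and -0.18), and for Il23r in Foxp3-positive over other Cd3-positive nuclei, in the control library with gates at 1000 UMIs (-0.0095) and among deep nuclei (-0.16), and in the knockout library without deep nuclei (-0.19). Between libraries they changed for Il23r in Foxp3-positive nuclei without deep nuclei (-0.49) and in other Cd3-positive nuclei among deep nuclei (-0.13), and with gates at 1000 UMIs for Il1rl1 in Foxp3-positive (0.025) and Il1rap in Cd3-negative nuclei (0.015). The Il23r peak ratio of Foxp3-positive over other Cd3-positive nuclei in the knockout library was 0.17 within 10 kb. The causes were not tested. Il12rb1 and Il1rap rest on 24 to 289 UMIs per gate and library, so their ratios have wide intervals. Shares at 1000 UMIs without deep nuclei, with the stricter Cd3-negative gate or with gates at 1000 UMIs, and windows around whole genes, were likewise added after the data were seen.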
